A study of Oryza sativa Indica Group with 23 samples.

Results

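Roots of the rice line FL478, grown without added salt, were compared with roots of its parent IR29, grown in the same way. The comparison rests on 5 of the 23 arrays of the series, 3 of FL478 control roots and 2 of IR29 control roots, chosen by genotype and treatment in the array titles. FL478 is a recombinant inbred line from a cross of IR29, a salt-sensitive indica variety, with Pokkali, a salt-tolerant landrace, and IR63731 is a further line in the series. Control plants stood in sand, were fed a nutrient solution and were harvested on day 30. Further groups are used beside them: FL478 and IR29 roots under salt (3 arrays each, sodium chloride and calcium chloride added from day 22 in 2 steps over 3 days, up to 7.4 dS per m, harvested on day 30), and control or salt-treated roots of Pokkali and IR63731 (3 arrays per genotype and treatment) as reference levels. IR29 control roots have no replicate number 3.

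A recombinant inbred line carries, at each place in its genome, the allele of one parent, in blocks that are inherited together. Neighbouring genes of 1 block therefore come from the same parent. FL478 is known as a donor of the Saltol region of Pokkali, which holds the sodium transporter gene HKT1;5, and roots are the organ where sodium, iron and other ions enter the plant. The control plants described here had received no salt.

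Values are RMA summaries on the log2 scale, in which 1 unit is 2-fold, and array medians lay between 4.31 and 4.41. Of 57381 probe sets, 57194 rice probe sets were tested with limma. An adjusted p under 0.05 after Benjamini-Hochberg adjustment over all of them is called passing. Array numbers limit the precision: the median standard error (SE) of a difference was 0.15. Among root markers, 8 of 9 genes lay above the highest array median on all 5 arrays, and the 9 genes averaged between 9.59 and 10.04 on FL478 arrays and between 9.63 and 10.11 on IR29 arrays. Of the markers of other tissues, 6 of 13 green leaf, 2 of 9 seed storage and 1 of 3 anther genes also lay above the highest array median on all 5 arrays. None of these 13 green leaf, 9 seed storage and 3 anther marker genes passed. The green leaf genes averaged from 5.20 to 5.31 in FL478 and from 5.09 to 5.12 in IR29, the seed storage genes from 4.02 to 4.07 and from 4.02 to 4.02, and the anther genes from 4.41 to 4.62 and from 4.51 to 4.67. As a measure of RNA quality, control probe sets at the 3 prime end exceeded those at the 5 prime end by 0.598, 0.595 and 0.526 on FL478 arrays and 0.631 and 0.606 on IR29 arrays. In whole roots, fewer cells of a type and less RNA per cell cannot be told apart.

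Of the 5 arrays, 2 carried signal of IR63731. At about 40 probe sets high in IR63731 alone, FL478 control replicate 3 lay 0.35 of the way from its own genotype to IR63731 and IR29 control replicate 1 lay 0.62 of the way, against -0.01 to 0.03 for FL478 control replicates 1 and 2 and IR29 control replicate 2. FL478 control replicate 3 was also raised at some probe sets high in IR29 alone: its position there had a median of 0.05 and a 90th percentile of 0.38, against 90th percentiles of 0.10 and 0.17 for FL478 control replicates 1 and 2. At probe sets high in Pokkali alone its median was 0.08 and its 90th percentile 0.41, against 90th percentiles of 0.21 and 0.08 for replicates 1 and 2. IR29 control replicate 1 correlated most closely with an IR63731 control array (r = 0.991 over probe sets). Among salt arrays FL478 replicate 2 lay 0.85 of the way to IR63731. Results are therefore given with all 5 arrays and without FL478 control replicate 3 and IR29 control replicate 1, which leaves 2 arrays of FL478 and 1 of IR29. That fit takes the lone IR29 array to vary as the other groups do. What put this signal there was not tested.

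FL478 roots differed from IR29 roots at 788 probe sets, 382 higher and 406 lower. These are 1.38% of those tested, 0.668% higher and 0.71% lower. The median difference was 1.30 among the higher and -1.25 among the lower probe sets, and 250 higher and 262 lower probe sets exceeded 2-fold. With a median SE of 0.15 small differences seldom pass, so these sizes follow in part from the call. The signed median over all probe sets, in which higher and lower values cancel, was 0.01. All 788 had FL478 and IR29 arrays that did not overlap, as had 25.3% of all probe sets. Without both doubted arrays, 350 were higher and 341 lower (1.21%), 246 and 249 of them shared with the fit of all arrays. Leaving out FL478 salt replicate 2 as well, which enters through the shared spread, gave 425 higher and 453 lower (1.54%). The shared 495 were 62.8% of the calls with all arrays and 71.6% of those without. Without IR29 control replicate 2 147 were higher and 142 lower, the lowest counts with 1 array left out, and without FL478 control replicate 1 the counts were 291 and 255.

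**Figure D1:**
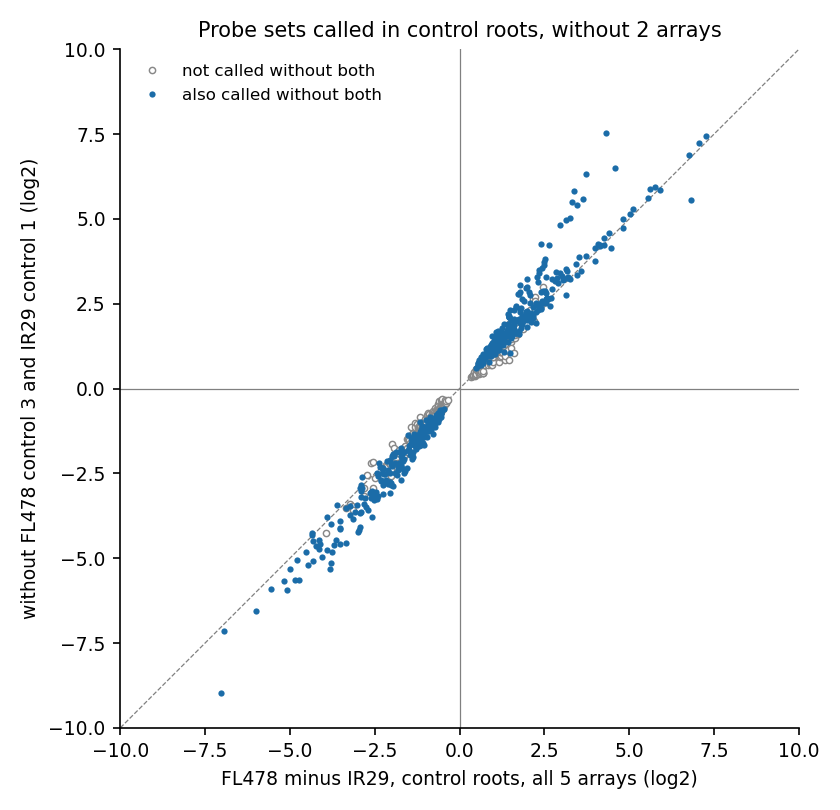
Log2 differences FL478 minus IR29 at the 788 probe sets that passed in control roots, with all 5 arrays (horizontal axis) and without FL478 control replicate 3 and IR29 control replicate 1 (vertical axis). Each point is a probe set, filled where it passed in both fits (495), and the dashed line marks equal values; open points are the probe sets that passed with all 5 arrays and not without those 2.

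Over 16-fold, 21 probe sets were higher and 21 lower, and all 42 passed in both fits and again between the salt-treated roots. In 22 of the 42, every array of the lower genotype lay below 4.31, the lowest array median. Os.48206.1.S1_at, which has no gene in the array annotation, measured 10.21, 10.47 and 10.24 in FL478 against 3.17 and 2.90 in IR29. It was higher by 7.27 (SE 0.30, adjusted p = 2.23e-11), and Pokkali control roots averaged 3.06 and IR63731 control roots 2.96. The probe set Os.8668.1.S1_x_at of LOC4352472 measured 10.88, 11.12 and 10.70 in FL478 against 3.92 and 3.76 in IR29, higher by 7.06 (SE 0.27, adjusted p = 7.32e-12). Os.22427.1.S1_at of LOC4349330 measured 11.32, 11.88 and 11.70 in FL478 against 3.56 and 6.05 in IR29, higher by 6.83 (SE 0.77, adjusted p = 3.06e-05), and by 5.56 without both doubted arrays. For each of these 3 the Pokkali and IR63731 control means lay between 2.96 and 4.15, so FL478 alone of the 4 genotypes had a high level.

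At the 3 probe sets with the largest differences on the lower side, Pokkali stood near IR29. Os.17916.1.S1_at measured 4.99, 2.91 and 7.56 in FL478 against 11.44 and 12.93 in IR29, lower by 7.03 on the log2 scale (SE 0.81, adjusted p = 3.89e-05), and FL478 control replicate 3 was the array nearest to IR29. Without both doubted arrays the log2 difference was -8.98. Os.48695.1.S1_s_at measured 3.36, 3.33 and 3.33 in FL478 against 10.07 and 10.49 in IR29, with a difference of -6.94 (SE 0.22, adjusted p = 8.68e-13). LOC4335019 measured 3.22, 3.20 and 3.84 in FL478 against 9.06 and 9.76 in IR29, with a difference of -5.99 (SE 0.24, adjusted p = 9.78e-12). Pokkali control roots averaged 12.15, 9.98 and 10.45 at these 3 probe sets, and IR63731 control roots 3.18, 3.13 and 2.84. At these 3 the low level was found in FL478 and IR63731 and in neither parent.

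Array annotation gave 1 gene for 22436 probe sets, and 17905 genes had a probe set of their own. By the probe set with the highest mean, 330 genes passed (1.84%), 167 higher and 163 lower (0.933% and 0.91%), and 277 genes passed without both doubted arrays (1.55%). Among 2458 genes with a name besides an identifier, 31 passed (1.26%), 19 higher and 12 lower, of which 14 and 7 also passed without both doubted arrays. The named genes below are 20 of those 21 first.

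**Figure D2:**
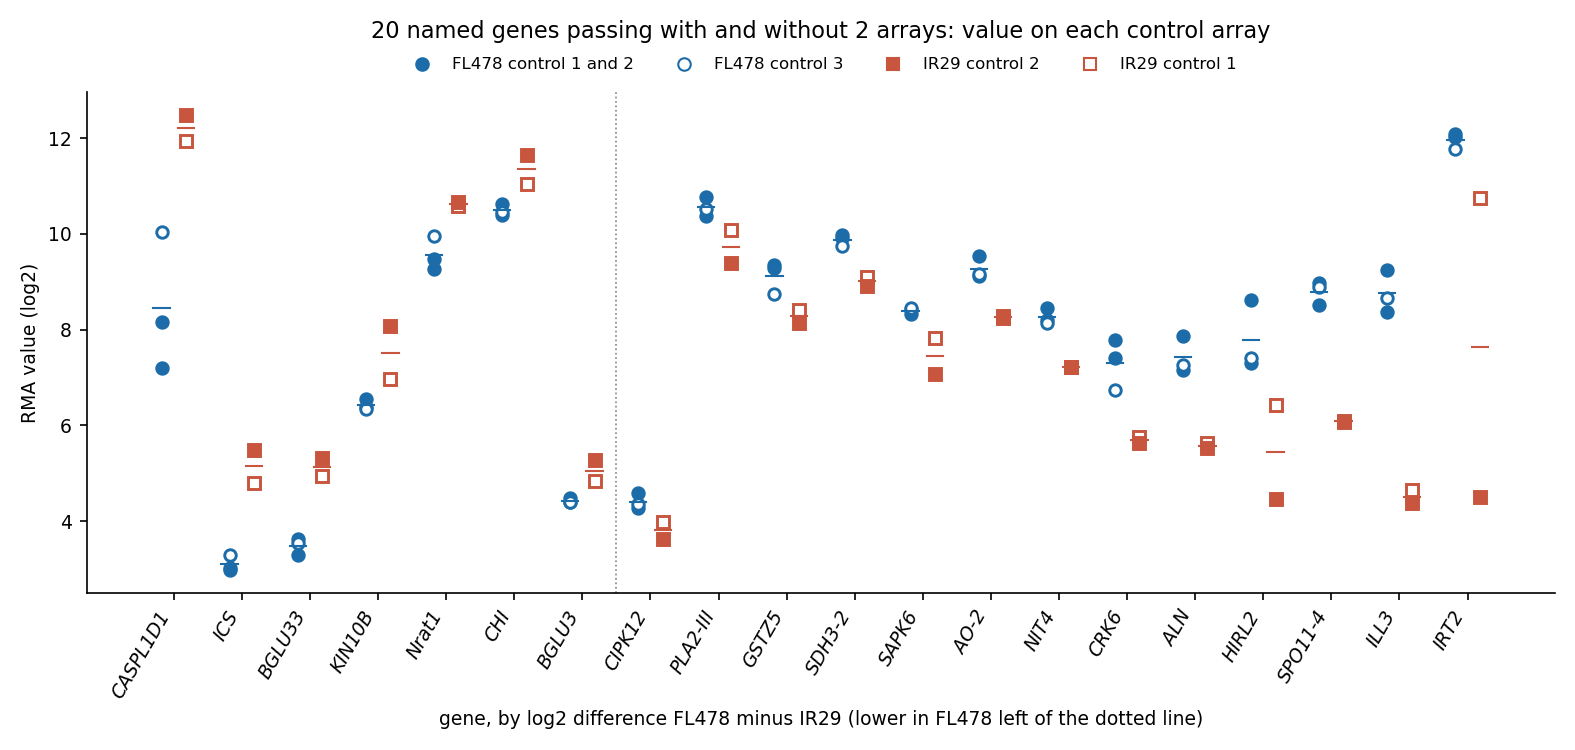
RMA values (log2, vertical axis) of 20 of the 21 named genes that passed both with all 5 arrays and without FL478 control replicate 3 and IR29 control replicate 1. Each point is an array (FL478 circles, left, and IR29 squares, right, of each gene; open symbols are the 2 doubted arrays) and short lines are group means; no FL478 point lies within the IR29 range, and the IR29 squares of IRT2 stand far apart at 10.76 and 4.51.

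The transporter genes went both ways. IRT2, a ferrous iron transporter gene of the root surface, measured 12.02, 12.09 and 11.77 in FL478 against 10.76 and 4.51 in IR29. The higher IR29 value came from replicate 1, the array that carries IR63731 signal, and IR63731 control roots averaged 11.39 for IRT2. FL478 was higher by 4.33 with all arrays (SE 0.98, adjusted p = 0.0282) and by 7.54 without both doubted arrays (adjusted p = 2.90e-09). IRT2 no longer passed without FL478 control replicate 1, 2 or 3 (adjusted p = 0.0862, 0.0872 and 0.0612), or without IR29 control replicate 2, where the log2 difference was 1.20 (adjusted p = 0.283). In salt-treated roots, with no doubted IR29 array, IRT2 stood at 10.49, 11.15 and 10.81 in FL478 against 4.33, 4.35 and 4.25 in IR29. IRT1, its close relative, averaged 12.22 in FL478 and 12.12 in IR29 and did not pass (adjusted p = 0.978). IRT2 was the 1 gene of 28 in the iron list that passed, and the list's median difference was -0.01, against -0.02 over all genes.

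Nrat1, which encodes an Nramp-family transporter that takes up trivalent aluminium, measured 9.27, 9.47 and 9.95 in FL478 against 10.58 and 10.66 in IR29. It was lower by 1.06 on the log2 scale (SE 0.20, adjusted p = 0.00629) and was no longer called once IR29 control replicate 2 was left out (-1.02, adjusted p = 0.124). In salt-treated roots its difference was -0.55 (adjusted p = 0.1). It was the 1 of 8 aluminium, silicon and boron genes that passed. None of 28 sodium and potassium transport genes passed, with differences from -0.44 to 0.46, nor did any of 27 zinc, copper and manganese genes or 28 aquaporin genes. Among all genes with a name 1.26% passed, so lists of this size would often hold none.

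CASPL1D1, which encodes a relative of the membrane proteins that scaffold the Casparian strip, measured 7.20, 8.15 and 10.03 in FL478 against 11.94 and 12.48 in IR29. FL478 control replicate 3 again lay nearest to IR29, though IR63731 control roots averaged 7.11. CASPL1D1 was lower by 3.75 on the log2 scale (13.4-fold, SE 0.52, adjusted p = 0.000343), and by 5.57 in salt-treated roots, and Pokkali control roots averaged 6.64. Its difference was -4.81 without both doubted arrays, -4.53 without FL478 control replicate 3 alone and -3.12 without FL478 control replicate 1 alone. It was the 1 of 49 phenylpropanoid, lignin and Casparian strip genes that passed, and that list's median was 0.11. CHI, which encodes the chalcone isomerase of flavonoid synthesis, measured 10.40, 10.63 and 10.45 in FL478 against 11.03 and 11.66 in IR29, with a difference of -0.85 (SE 0.17, adjusted p = 0.00994). Without IR29 control replicate 2 its difference was -0.54 (adjusted p = 0.422). None of the other 9 flavonoid genes passed, nor did any of 34 cellulose and hemicellulose synthesis genes or 30 wall loosening genes.

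ICS, which encodes isochorismate synthase at the branch to salicylic acid and phylloquinone, measured 2.98, 3.02 and 3.29 in FL478 against 4.80 and 5.49 in IR29. The difference was -2.05 (SE 0.23, adjusted p = 2.28e-05), and all FL478 values lay under the lowest array median. The beta-glucosidase gene BGLU33 measured 3.63, 3.29 and 3.55 in FL478 against 4.94 and 5.32 in IR29, with a difference of -1.64 (SE 0.19, adjusted p = 5.56e-05). BGLU3, of the same family of glycoside hydrolases, measured 4.40, 4.49 and 4.40 in FL478 against 4.84 and 5.28 in IR29 (-0.63, SE 0.14, adjusted p = 0.0222). These were the 2 of 27 beta-glucosidase genes that passed, the highest count in any list, and the list's median was -0.08. BGLU3 did not pass without FL478 control replicate 1 or 3 (adjusted p = 0.08 and 0.0668) or IR29 control replicate 2 (-0.41, adjusted p = 0.592). KIN10B measured 6.55, 6.38 and 6.35 in FL478 against 6.97 and 8.07 in IR29 (-1.09, SE 0.22, adjusted p = 0.0116), and without IR29 control replicate 2 its difference was -0.54 (adjusted p = 0.466).

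ILL3, of the family of hydrolases that release auxin from its amino acid conjugates, measured 8.37, 9.25 and 8.65 in FL478 against 4.65 and 4.38 in IR29. It was higher by 4.24 (SE 0.31, 18.9-fold, adjusted p = 7.42e-08), the Pokkali control mean was 8.26 and the IR63731 control mean 4.61. ALN, which encodes the allantoinase of ureide breakdown, measured 7.88, 7.17 and 7.27 in FL478 against 5.64 and 5.52 in IR29 (1.86, SE 0.33, adjusted p = 0.0037). NIT4, a nitrilase gene, measured 8.21, 8.46 and 8.15 in FL478 against 7.22 and 7.22 in IR29 (1.05, SE 0.17, adjusted p = 0.00146). Pokkali control roots averaged 7.22 for ALN and 8.26 for NIT4, within the range of the FL478 arrays. ALN was no longer called once IR29 control replicate 2 was left out (1.80, adjusted p = 0.0828). None of 60 auxin genes, a list that does not hold ILL3, and none of 21 genes of nitrogen uptake and assimilation passed with all arrays.

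HIRL2, named for its likeness to hypersensitive induced reaction proteins, measured 7.31, 8.63 and 7.40 in FL478 against 6.43 and 4.47 in IR29 (2.33, SE 0.41, adjusted p = 0.0037). Its IR29 values lay far apart, IR63731 control roots averaged 7.11, and without both doubted arrays the difference was 3.50. CRK6, a cysteine-rich receptor-like kinase gene, measured 7.78, 7.41 and 6.74 in FL478 against 5.77 and 5.64 in IR29 (1.61, SE 0.31, adjusted p = 0.00921), and its difference under salt was 0.79 (adjusted p = 0.147). SAPK6, which encodes a SnRK2 kinase activated by osmotic stress, measured 8.41, 8.33 and 8.44 in FL478 against 7.84 and 7.08 in IR29 (0.93, SE 0.18, adjusted p = 0.00872). It was the 1 of 15 genes in the abscisic acid list that passed. CIPK12, a kinase gene of the calcineurin B-like calcium sensor network, measured 4.27, 4.59 and 4.35 in FL478 against 3.99 and 3.62 in IR29 (0.59, SE 0.13, adjusted p = 0.0261), the 1 of 78 calcium sensor and kinase genes that passed.

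Several of these calls were lost with 1 array left out. In salt-treated roots HIRL2 (1.64, adjusted p = 0.0144), SAPK6 (0.99, adjusted p = 0.000964) and CIPK12 (0.50, adjusted p = 0.0199) passed. Leaving out IR29 control replicate 2 leaves only IR29 control replicate 1, which carries IR63731 signal. In that fit HIRL2 (1.35, against 2.33 with all arrays), CRK6 (1.54 against 1.61), SAPK6 (0.56 against 0.93) and CIPK12 (0.41 against 0.59) did not pass. CRK6 also did not pass without FL478 control replicate 1 (adjusted p = 0.0556) or IR29 control replicate 1 (adjusted p = 0.0512), nor CIPK12 without FL478 control replicate 2 (adjusted p = 0.13). ILL3, SPO11-4, NIT4 and AO-2 passed with any 1 of the 5 arrays left out, as did CASPL1D1, ICS and BGLU33.

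SPO11-4, a relative of the A subunit of DNA topoisomerase VI, measured 8.52, 8.97 and 8.88 in FL478 against 6.08 and 6.09 in IR29. It was higher by 2.71 (SE 0.26, 6.53-fold, adjusted p = 4.01e-06), with Pokkali control roots at 9.0 and IR63731 control roots at 6.14. The respiratory gene SDH3-2, for a subunit of succinate dehydrogenase, measured 9.97, 9.91 and 9.75 in FL478 against 9.10 and 8.92 in IR29 (0.87, SE 0.14, adjusted p = 0.00147). The phospholipase A2 gene PLA2-III measured 10.38, 10.78 and 10.52 in FL478 against 10.08 and 9.39 in IR29 (0.82, SE 0.15, adjusted p = 0.00579). GSTZ5, a zeta-class glutathione transferase gene, measured 9.28, 9.36 and 8.75 in FL478 against 8.41 and 8.15 in IR29 (0.85, SE 0.21, adjusted p = 0.0494), the 1 of 6 genes of its list that passed. AO-2 measured 9.53, 9.11 and 9.16 in FL478 against 8.24 and 8.28 in IR29 (1.01, SE 0.14, adjusted p = 0.000388), and 0.36 under salt (adjusted p = 0.145). Without IR29 control replicate 2, SDH3-2 (adjusted p = 0.0629), PLA2-III (0.48, adjusted p = 0.302) and GSTZ5 (adjusted p = 0.55) did not pass. GSTZ5 was also lost without any other 1 of the 5 arrays except FL478 control replicate 3 (adjusted p = 0.189, 0.196 and 0.0878 without FL478 control replicates 1 and 2 and IR29 control replicate 1).

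A further 10 named genes passed with all arrays but not without the 2 doubted ones. The MADS-box gene mads47, known as a repressor in brassinosteroid responses, measured 6.47, 5.36 and 6.51 in FL478 against 7.81 and 8.11 in IR29 (-1.84, SE 0.39, adjusted p = 0.0174, and 0.056 without both). In salt-treated roots its difference was -2.28 (adjusted p = 0.000504). PRIN2 (-1.13), a chitinase gene (-0.81) and the histone gene H2B.5 (-0.35) had adjusted p from 0.103 to 0.221 without both. On the higher side, AARE2 (0.94), LOGL9, for a cytokinin-activating enzyme (0.73), ITPase (0.72) and ARD' 4, for an acireductone dioxygenase of the methionine cycle (0.68), had adjusted p from 0.0671 to 0.285. The last pair, picked after their values were seen, was PSK4, for a phytosulfokine peptide precursor (2.46, adjusted p = 0.0203, and 0.0576 without both), and DJA6, for a DnaJ-type chaperone (-1.11, adjusted p = 0.0468, and 0.052 without both). PSK4 measured 8.66, 8.60 and 8.20 in FL478 against 6.42 and 5.62 in IR29.

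Some named genes had probe sets that disagreed. Among named genes whose representative probe set did not pass, 12 other probe sets of 11 genes did, and those given here were picked after their values were seen. One probe set of GLP2, a germin-like protein gene, measured 6.26, 5.26 and 6.65 in FL478 against 11.05 and 11.44 in IR29 (-5.19, SE 0.53, adjusted p = 9.67e-06), while its representative had a difference of 0.28 (adjusted p = 0.906). One of 3 probe sets of VDAC1, for the porin of the outer mitochondrial membrane, measured 5.41, 5.73 and 6.44 in FL478 against 8.86 and 9.32 in IR29 (-3.22, adjusted p = 8.22e-09), a second had -0.83 and the representative -0.01. A probe set of the DNA repair gene RAD23 was higher by 1.81 (adjusted p = 0.00147), while its representative differed by -0.12. Of 68 passing genes with several probe sets, all probe sets had the same direction in 42. Probe sequences were not used here, so a difference in RNA level and a difference in how well probes match each genotype's sequence cannot be told apart.

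Genes known from work on salt in rice did not pass in control roots, where 1.26% of all genes with a name passed. At that share, no passing gene among so few is unremarkable. Of 16 such genes 11 were found by name, with differences from -0.45 to 1.29, and the lowest adjusted p was 0.233. That was SalT, a mannose-binding lectin gene, with 11.26, 10.47 and 10.95 in FL478 against 10.12 and 10.12 in IR29. HKT1;5, the gene of a transporter that retrieves sodium from the xylem, measured 4.88, 5.06 and 7.76 in FL478 against 7.27 and 5.33 in IR29 (-0.40, SE 0.76, adjusted p = 0.914). The highest FL478 and the highest IR29 value came from the 2 arrays with IR63731 signal. Both lay above the IR63731 control mean of 6.69, where single arrays ranged from 6.10 to 7.74, and Pokkali control roots averaged 4.22. Arrays without that signal also reached such levels under salt, with 7.62 on FL478 replicate 1 and 7.63 on IR29 replicate 3. Without both doubted arrays the HKT1;5 difference was -0.36. What raised these values was not tested. The potassium uptake genes AKT1 (-0.10), HAK1 (0.26) and HAK5 (-0.13), the proline synthesis genes P5CS1 (-0.07) and P5CS2 (-0.45), LEA3 (0.14), the dehydrin gene DHN1 (0.36), NAC6 (0.60) and DREB1A (1.29, SE 0.87) filled the rest. With SEs from 0.14 to 0.87, a miss does not show equal levels.

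Several clock genes differed widely between replicates of both genotypes. None of 8 genes of the list passed, and their median difference was -0.69, or -0.61 without both doubted arrays, the lowest median of any list of at least 5 genes in both fits. PCL1, an evening gene, measured 4.46, 8.62 and 4.54 in FL478 against 4.26 and 9.04 in IR29. CCA1, a dawn gene, measured 12.30, 10.90 and 12.13 in FL478 against 12.09 and 10.21 in IR29. GI, an evening gene, measured 9.64, 11.85 and 9.51 in FL478 against 10.90 and 12.26 in IR29. In both genotypes replicate 2 was the array with high PCL1 and GI and low CCA1. Since IR29 control has no replicate 3, replicate 2 is 1 of 3 FL478 arrays and 1 of 2 IR29 arrays. Without both doubted arrays it is 1 of 2 FL478 arrays and the only IR29 array. The differences then went from -0.77 to -2.50 for PCL1, 0.63 to 1.39 for CCA1 and -1.24 to -1.51 for GI, while PRR95 went from -0.61 to -0.36. The list was matched by name, and its member ELF1 is a ubiquitin ligase gene, not a clock gene.

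Over 46 gene lists, 13 of 1133 genes passed, 6 higher and 7 lower. This share was 1.15%, beside 1.26% of the genes with a name, since the lists were matched by name, and 1.84% of all genes. Of 44 lists with at least 5 genes, 12 had a passing gene and 32 had none, and no list had more than 2. Among lists with none were 60 auxin, 53 sugar transport and sucrose metabolism, 50 C3H zinc finger, 55 PP2C phosphatase, 49 antioxidant and 38 jasmonate genes. The 20 diterpenoid phytoalexin genes, which make antimicrobial compounds of rice, had a median of 0.41, or 0.56 without both doubted arrays, and the highest at 3.10, yet none passed.

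The genotype difference seen in control roots recurred in salt-treated roots, which share no array with it but share the estimate of spread. Of the 788 probe sets, 777 had the same direction there, against 62.8% of all probe sets, and 611 passed again. The 611 are 77.5% of the calls in control roots and 28.5% of the 2141 calls under salt (3.74% of probe sets). None passed in the opposite direction. FL478 and IR29 salt arrays did not overlap at 328 of the 382 higher and 350 of the 406 lower probe sets. The share of all probe sets without overlap between these salt arrays was not counted, so these counts have no share to be set beside. Without all 3 arrays with IR63731 signal, 1994 passed under salt (3.49%), and of the 495 called in both control fits 492 kept their direction and 441 (89.1%) passed.

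**Figure D3:**
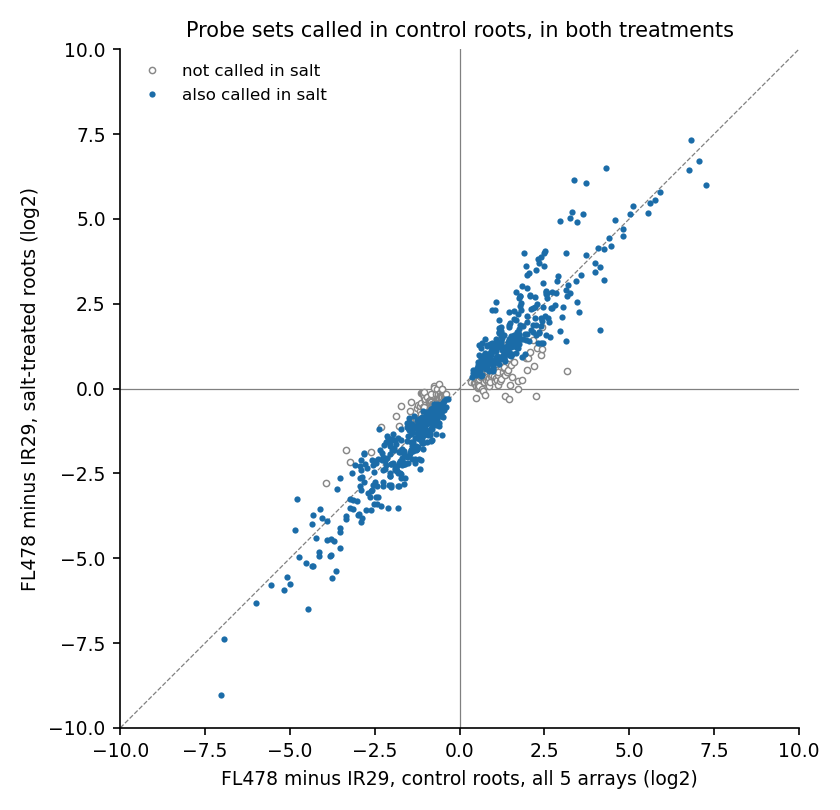
Log2 differences FL478 minus IR29 in control roots (horizontal axis) and in salt-treated roots (vertical axis) at the 788 probe sets that passed in control roots. Each point is a probe set, filled where it passed again under salt with the same direction (611), and the dashed line marks equal differences; 11 points lie across the 0 line and none of them is filled.

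A test of the difference between treatments called 1 probe set (0.00175% of those tested, 2628 at an unadjusted p under 0.05). It belongs to LOC4335593, which measured 5.97, 5.62 and 4.98 in FL478 against 3.25 and 3.27 in IR29 control roots. In salt-treated roots it measured 2.90, 3.09 and 3.38 in FL478 against 3.25, 3.31 and 3.44 in IR29. The difference was 2.26 (SE 0.22) in control roots and -0.21 under salt (adjusted p = 0.691), and the change between treatments was -2.47 (SE 0.29, adjusted p = 0.00557). Pokkali and IR63731 control roots averaged 3.43 and 3.10.

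The level of FL478 was set between those of its parents in salt-treated roots. Of the 788 probe sets, 288 had at least 1 log2 unit between Pokkali and IR29 in salt-treated roots. On a scale from 0 at IR29 to 1 at Pokkali, the median position of FL478 was 0.96 with all its salt arrays and 1.00 without FL478 salt replicate 2. Without that array 210 of the 288 (72.9%) lay within 0.25 of Pokkali, 5 within 0.25 of IR29, 25 between, 40 beyond Pokkali and 8 beyond IR29. Over all 2014 probe sets with such a parental gap, the median was 0.40, with 25.4% at Pokkali and 33.6% at IR29. The 288 were chosen for a difference of FL478 from IR29 in control roots, so few could lie at IR29. Of the 31 named genes, 21 had a Pokkali control mean nearer to FL478 than to IR29. Among the other 10 were CRK6, GSTZ5, SDH3-2, mads47 and PSK4, where Pokkali stood nearer to IR29. The 31 were chosen for a difference between these same FL478 and IR29 control means. The count over all named genes was not taken, so the 21 have no share to be set beside.

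**Figure D4:**
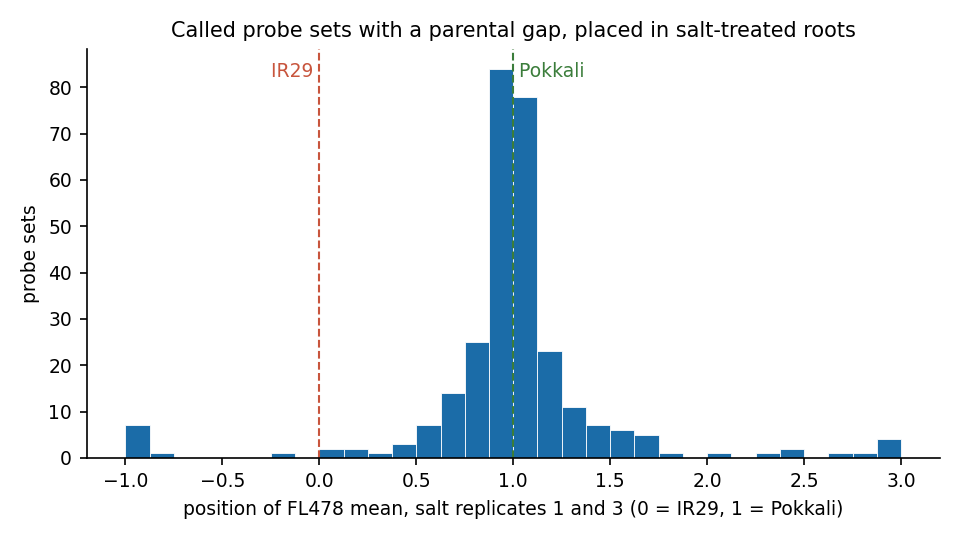
Position of the FL478 mean, from salt replicates 1 and 3, between IR29 (0) and Pokkali (1) in salt-treated roots, for the 288 probe sets that passed in control roots and had at least 1 log2 unit between the parents. Bars count probe sets, with 7 values below -1 and 3 above 3 drawn in the outermost bars; the peak stands at Pokkali, with a median of 1.00.

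The other 500 probe sets had less than 1 log2 unit between the parents under salt. FL478 stood at least 1 log2 unit from IR29 under salt at 244 of them, 136 higher and 108 lower, each in the direction seen in control roots. These 500 too were chosen for a difference of FL478 from IR29 in control roots, so this count follows in part from the choice. The share over all probe sets without a parental gap was not counted. Of the 6 probe sets with the largest differences described above, 3 were low in both parents and 3 were high in both. Os.17916.1.S1_at, high in both, was not among the 500 but among the 288 with a parental gap. Its salt-treated means were 12.36 in IR29 and 11.30 in Pokkali. Its position of 8.46 without FL478 salt replicate 2 counts as beyond Pokkali, although FL478 was far below both parents.

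Genes that differed lay near each other on the chromosomes. Of 629 measured genes next to a passing gene in RefSeq order, 59 passed (9.38%), against 271 of 17274 others (1.57%). Without both doubted arrays the shares were 7.97% and 1.35%. Neighbouring copies of a gene can share probes. Whether this adds to the share was not tested, and no test of the share itself was run. There were 34 pairs of neighbours that both passed, 13 both higher, 10 both lower and 11 in opposite directions. Chromosome 12 had the highest share of passing genes, 41 of 908 (4.52%, and 3.63% without both), with 19 higher and 22 lower. Chromosome 4 followed with 2.68%, and 2.29% without both. The order of the others depended on the arrays: chromosome 7 had 2.33%, and 1.60% without both, chromosome 8 had 1.82%, and 2.16% without both, and the lowest share was on chromosome 5 with all arrays (1.06%) and on chromosome 2 without both (0.80%). In 890 consecutive blocks of 20 measured genes, 668 (75.1%) held no passing gene, and 28 blocks with at least 3 held 97 of the 330.

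**Figure D5:**
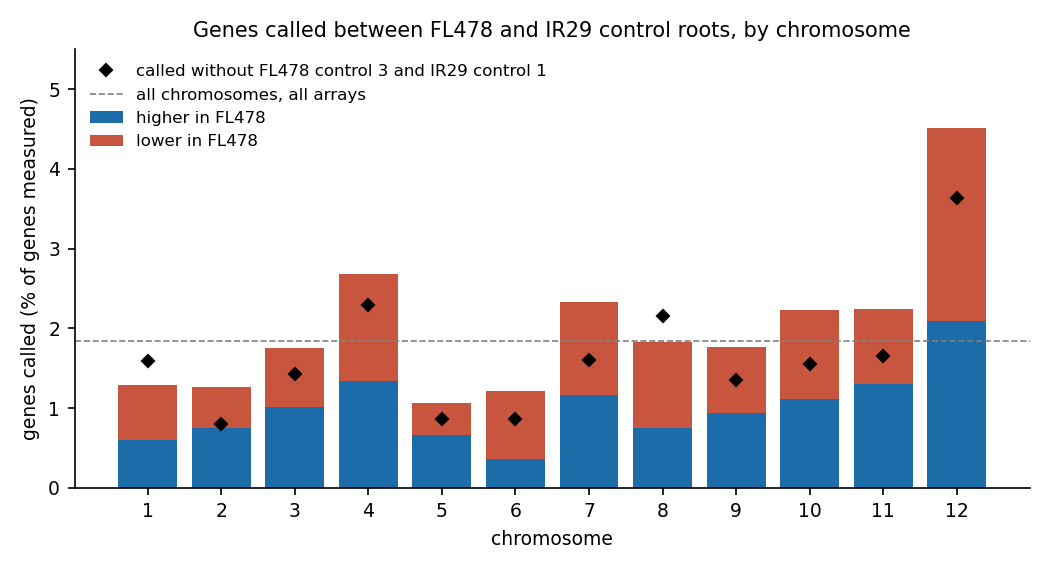
Share of measured genes that passed between FL478 and IR29 control roots on each of the 12 chromosomes (bars, in % of genes measured, split into higher and lower in FL478; dashed line, 1.84% over all chromosomes). Diamonds give the share without FL478 control replicate 3 and IR29 control replicate 1; chromosome 12 stands highest in both, at 4.52% and 3.63%.

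The fullest block, on chromosome 12, held 7 passing genes, 5 of them consecutive measured genes from LOC4352472 to LOC4352476 and all higher in FL478. The genes of these blocks were picked after their values were seen. LOC4352473 measured 9.87, 9.75 and 10.15 in FL478 against 7.90 and 6.92 in IR29 (2.51, SE 0.35, adjusted p = 0.000379). LOC4352475 measured 5.63, 6.13 and 4.65 in FL478 against 3.01 and 3.02 in IR29 (2.46, SE 0.29, adjusted p = 4.18e-05). LOC4352474 was higher by 2.3 with all arrays and did not pass without both (adjusted p = 0.123), and LOC4352476 was higher by 2.84. At all 5 the Pokkali and IR63731 control means lay near IR29, as for LOC4352475 with 2.95 and 3.03. The 5 were also higher in salt-treated roots, by 1.20 to 6.71, and LOC4352474 did not pass there (adjusted p = 0.161).

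On chromosome 4, KIN10B shared a block with LOC4335608, LOC4335622, LOC4335629 and LOC4335631, all lower in FL478, by 0.87 to 1.63 on the log2 scale, and all passing in both fits. LOC4335608 measured 3.20, 3.27 and 3.44 in FL478 against 4.15 and 5.71 in IR29, with a Pokkali control mean of 3.23. On chromosome 7, CRK6 shared a block with 4 other passing genes, LOC4343487 (2.00) and LOC4343506 (2.40) higher and LOC4343492 (-3.24) and LOC4343505 (-3.13) lower; LOC4343505 had an adjusted p of 0.103 without both doubted arrays. On chromosome 9, HIRL2, VDAC1 and ICS lay in that order with 1 gene between HIRL2 and VDAC1 and none between VDAC1 and ICS, HIRL2 higher, and ICS and 2 probe sets of VDAC1 lower, in FL478. On chromosome 10, AARE2 and the chitinase gene lay with 1 gene between them, the first higher by 0.94 and the second with a difference of -0.81. AARE2 has 2 probe sets, and the one not used here had the opposite direction.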

How the data were processed

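RNA of rice roots was hybridised to Affymetrix rice arrays, 23 in all. The values are log2 probe set summaries that the authors made with RMA (background correction, quantile normalization and probe set summary), per the submitters' processing notes; the sources used here give neither its version nor the build of the array annotation. Affymetrix control and reporter probe sets (123 and 64) were left out. limma 3.58.1 (R 4.3.3) was fitted to 8 group means over all 23 arrays with 1 shared spread per probe set, and each contrast was adjusted by Benjamini-Hochberg over 57194 probe sets. The array titles call the arrays biological replicates, but no separate cultures are stated. The p-values measure the spread between arrays within the 8 groups, and not that of the compared arrays alone. The fit was tested on simulated data.

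The arrays and the gene lists were chosen with earlier results of these data known. Where a gene had several probe sets, the one with the highest mean over the 23 arrays stood for it. Named genes were the up to 14 each way that passed in both fits, up to 4 each way lost without the doubted arrays, up to 3 each way among all probe sets, list members that passed, and salt and clock genes. One gene that this rule names is not reported here. Symbols and synonyms came from RefSeq's gene table, used for names and neighbour order only, and no coordinates or sequences were used. List stems were trimmed after the lists were written, so that the longest stem decided and 2-letter stems took no further letters. Replicate numbers 1 and 2 are shared by the groups. Deviations of same-numbered control arrays of FL478 and IR29 correlated at -0.01 and 0.26 over probe sets, and those of FL478 control 3 and IR29 control 1 at 0.28. The deviations of the 2 IR29 arrays mirror each other, so these values cannot show pairing. No label ties a number to a batch. Alternatives were the arrays left out, the spread, weights, normalization, filters and the replicate number as a block.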

Additional observations from a re-analysis of the deposited data

Results flagged for a closer look

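LOC4335593, on chromosome 4, was the 1 probe set whose difference between FL478 and IR29 itself differed between treatments, by a test of that difference in limma. FL478 minus IR29 was -0.21 in salt-treated roots and 2.26 in control roots, a change of -2.47 (SE 0.29, adjusted p = 0.00557). The 3 FL478 control arrays lay from 4.98 to 5.97, and every other FL478 or IR29 array lay from 2.90 to 3.44, below the lowest array median.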

How the results depend on the processing

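In control roots FL478 had 382 higher and 406 lower probe sets with all arrays. Fitting only the arrays of the groups compared gave 107 higher and 132 lower in control roots, 262 higher and 250 lower in salt-treated roots (1139 and 1002 with all groups), and 0 for the difference between treatments (1977 at an unadjusted p under 0.05). Leaving out 1 array at a time gave 147 to 398 higher and 142 to 380 lower in control roots, lowest without IR29 control replicate 2, and 596 to 1506 higher and 582 to 1534 lower in salt-treated roots. Under salt the counts were lowest without IR29 salt replicate 1 (596 and 582), near that without IR29 salt replicate 3 (610 and 627), 712 and 649 without FL478 salt replicate 3, and highest without IR29 salt replicate 2. The difference between treatments called 1 to 65 probe sets with 1 array left out, 65 without IR29 control replicate 2, 6 without IR29 salt replicate 2 and 5 without FL478 salt replicate 1. It called 3 without FL478 salt replicate 2 or IR29 salt replicate 3, and 2 without FL478 control replicate 2 or IR29 control replicate 1. It also called 2 without both doubted arrays, 2 without all 3 arrays with IR63731 signal, and 0 among probe sets over the median (1207 at an unadjusted p under 0.05). Without those 3 arrays 425 were higher and 453 lower in control roots.

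The replicate block, for numbers that are not shown to pair arrays, gave 431 higher and 486 lower in control roots, and 1608 higher and 1523 lower under salt. Of 49 named results called with all arrays, 27 were lost without IR29 control replicate 2, 33 with only the compared arrays, 16 without both doubted arrays, 3 with the block and 0 without _s_at and _x_at probe sets (of 42 tested). The cause of these losses was not tested. Where 1 genotype lay below the lowest array median, as ICS did in FL478, signal over background limits how well the size of a difference is known.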
